A study of Mus musculus with 6 samples.

Results

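The genes examined here were the suppressive cytokine gene Il10, the genes Ebi3 and Il12a for both chains of interleukin-35, the IL-10 receptor genes Il10ra and Il10rb, and the genes of 5 transcription factors known to control Il10, namely Maf, Prdm1, Nfil3, Bhlhe40 and Ahr. They were set by symbol for their known roles, with no threshold on a measured value, and all 10 were among the 22939 genes of the count table. The 6 RNA libraries came from mouse regulatory T (Treg) cells, 3 of them control (ctrl-Treg) and 3 differentiated with sorafenib (Sora-Treg), where Sora is a kinase inhibitor used against liver cancer. According to the methods of the study, naive CD4+ T cells of Foxp3-GFP knock-in mice, which carry GFP in the endogenous Foxp3 locus on a C57BL/6J background, were cultured on antibodies to CD3 and CD28 with TGF-β1 and with antibodies that block IFN-γ and IL-4. Both groups received all of these, and the GFP-positive cells were sorted, so every library was selected on Foxp3 and holds Treg cells induced in culture, not Treg cells taken from mice. The labels give neither the Sora concentration nor the age, sex or number of the animals behind these libraries.

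IL-10 is a secreted cytokine that restrains inflammation and is one of the means by which Treg cells suppress other immune cells. It binds IL-10RA, which pairs with IL-10RB, and the receptor acts through the kinases JAK1 and TYK2 and the transcription factor STAT3. In T cells c-MAF, BLIMP-1 (from Prdm1), NFIL3 and AHR are known to promote Il10 transcription, whereas BHLHE40 is known to repress it. Interleukin-35, another cytokine ascribed to Treg cells, is a pair of EBI3 and the IL-12 alpha chain encoded by Il12a.

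Total counts per library ranged from 30727686 to 37717324. Of 6 markers of Treg cells, which include general T-cell genes, all were present in every library, 5 were higher in Sora-Treg cells and Ikzf2 did not pass the test. Their summed level was between 3603 and 3655 in ctrl-Treg and between 6298 and 6428 CPM in Sora-Treg libraries (counts per 1000000 after TMM, the trimmed mean of M-values scaling). Over all 13463 tested genes 29.7% were higher and 29.9% lower at an adjusted p under 0.05. The marker counts are read beside these shares. Of 8 myeloid markers, 7 were tested, of which 5 were lower and none higher in Sora-Treg cells. Their summed level reached 93.5, 93.2 and 24.9 CPM across the ctrl-Treg and 22.4, 43.0 and 20.8 CPM across the Sora-Treg libraries, so control replicates 1 and 2 stood apart from the other 4. Itgax was at 0 in control replicate 3, while Lyz2, Csf1r, Itgam and Adgre1 were above 0 in all 6. Cd14, among the lower myeloid markers, passed the filter only because of the ctrl-Treg libraries (44, 35 and 10 counts against 6, 12 and 7 in Sora-Treg). Of 5 B-cell markers, 4 were tested and were lower, 3 of which passed the filter only through the ctrl-Treg libraries, with sums from 9.70 to 10.7 CPM in ctrl-Treg and from 6.08 to 7.67 CPM in Sora-Treg cells, and Ms4a1 reached 0 in 2 of the Sora-Treg libraries. Of the dendritic-cell markers Zbtb46 and Flt3 were lower and H2-Ab1 higher, Xcr1 was at 0 in 3 libraries, and the sum, most of it H2-Ab1, went from between 68.9 and 74.9 to between 188 and 197 CPM. Flt3 passed the filter only because of the ctrl-Treg libraries (33, 32 and 28 counts against 7, 13 and 8 in Sora-Treg). Foxp3, the sorted gene, went from 258 ± 8.98 to 272 ± 4.74 CPM and Il2ra from 1933 ± 32.1 to 3793 ± 54.2 CPM (SD, n = 3). Ctla4 went from 383 to 1107 CPM, and Il2ra and Ctla4 made up most of the rise in the Treg sum. By edgeR Foxp3 and Cd4 passed narrowly (adjusted p = 0.0405 and 0.0416), and the groups overlapped for Foxp3. In FPKM (fragments per kilobase of gene and 1000000 counts) Foxp3 went from 68.5 to 66.6 and Cd4 from 204 to 196. The direction of Foxp3 and Cd4 thus depended on the scaling. The Treg and dendritic-cell sums moved in the direction of Il10 and its factors, and their part in those changes was not tested. Of the CD8 markers Cd8a was lower and Cd8b1 did not pass the test, with sums between 12.6 and 15.1 CPM over all libraries. Results are therefore also given with control replicate 3 as the only control library wherever that changed them.

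Of the 10 genes, 9 passed the filter on low counts and were tested, and Il12a did not. By an adjusted p under 0.05, 8 were higher and 1, Ebi3, was lower in Sora-Treg cells, so that all 9 tested genes were called, where 59.6% of all 13463 tested genes were, 29.7% as higher and 29.9% as lower. A differentially expressed gene (DEG) also had to change by over 2-fold, as 11.3% of all tested genes did, 6.3% higher and 4.97% lower. The 4 DEGs among the 9 were Il10, Maf, Nfil3 and Prdm1, all higher. The control and Sora libraries did not overlap for any of the 10, a property that 63.7% of all tested genes shared. The median absolute log2 fold change was 0.77 over the 9 and 0.28 over all tested genes, and the signed medians were 0.77 and -0.0035. Scaling each library by its total count shifted the median of all genes by -0.12. By that scaling 2862 of all tested genes were higher and 5614 lower, against 3994 and 4028 with TMM scaling, while 8 of the 9 genes were again higher and Ebi3 again lower.

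**Figure D1:**
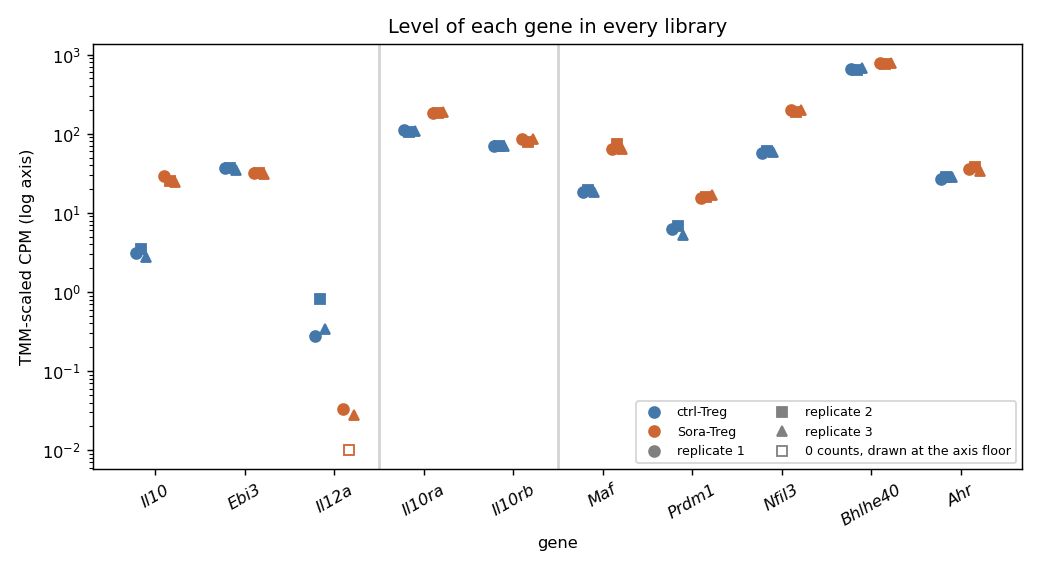
TMM-scaled CPM on a log axis of each gene in each of the 6 libraries, with colour for the group and symbol for the replicate number (the open square is a library with 0 counts). The 3 Sora-Treg libraries lie above all 3 ctrl-Treg libraries for 8 genes and below them for Ebi3 and Il12a.

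Among the cytokine genes Il10 rose strongly, while neither chain of interleukin-35 was higher. Il10 (GRCm38 chromosome 1, 131019845 to 131024974, plus strand) stood at 3.10, 3.49 and 2.79 CPM across the ctrl-Treg and at 29.0, 25.3 and 24.8 CPM across the Sora-Treg libraries. The groups were far apart, and no library was intermediate. In bulk RNA more producing cells and more Il10 RNA per cell cannot be told apart. These values rest on 122, 127 and 89 counts in ctrl-Treg cells and on 879, 807 and 884 in Sora-Treg cells. The log2 fold change was 3.07 with an SE of 0.10 (by edgeR, adjusted p = 3.24e-17), an 8.40-fold rise that was larger in size than the changes of 98.9% of all tested genes. With control replicate 3 as the only control it was 3.24, so the rise was as large without control replicates 1 and 2. The study singled out Il10 in these same libraries, so this rise is not independent evidence. It also reported higher Il10 RNA by real-time PCR and higher IL-10 protein by ELISA in Sora-Treg cells, which were not examined here.

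Ebi3 (chromosome 17, 55952640 to 55957022, plus strand) stood at 37.4, 36.6 and 35.2 CPM across the ctrl-Treg and at 32.1, 31.5 and 30.7 CPM across the Sora-Treg libraries. The groups did not overlap. The gap between them was small beside the level of the gene, but exceeded the range of either group. Ebi3 fell by 0.21 on the log2 scale, to 0.863 of the control level (SE 0.05, adjusted p = 0.0017 by edgeR). With library size alone the log2 fold change was -0.33, and with control replicate 3 as the only control it was -0.16 and no longer passed (edgeR adjusted p = 0.123). The B-cell sum and the dendritic-cell markers Zbtb46 and Flt3 moved in the same direction as Ebi3, and the dendritic-cell marker H2-Ab1 in the opposite direction. The myeloid sum was highest in control replicates 1 and 2, but was lower in control replicate 3 than in Sora replicate 2. The part of these levels in the fall of Ebi3 was not tested. The antisense gene Gm16712 overlaps Ebi3 but had only 5 to 11 counts per library.

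Il12a (chromosome 3, 68690644 to 68698547, plus strand), whose product also forms interleukin-12 with the chain from Il12b, was close to the limit of detection. It collected 11, 30 and 11 counts across the ctrl-Treg and 1, 0 and 1 across the Sora-Treg libraries. All control libraries were above all Sora libraries, and control replicate 2 alone held more counts than the other 2 controls together. Summed over libraries, 52 counts stood against 2, a ratio of 0.0423 with an exact 95% interval from 0.0050 to 0.161 that covers counting error only. It failed the filter of the main fit. When every gene with at least 1 count was tested, its log2 fold change was -4.35 with an SE of 0.87 (by edgeR, adjusted p = 3.06e-06), and DESeq2 gave -4.56 (adjusted p = 7.93e-04). Without control replicate 2 it again failed the filter, with 11 counts in each control left. The part of the myeloid, B-cell and dendritic-cell marker levels in the Il12a difference was not tested. Per length, Ebi3 exceeded Il12a in every library, by 178.5, 59.2 and 136 times in FPKM (fragments per kilobase of gene and 1000000 counts) in the ctrl-Treg libraries and by 1301 and 1457 times in the Sora-Treg libraries with an Il12a count.

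Both IL-10 receptor chains rose, Il10ra by more than Il10rb. Il10ra (chromosome 9, 45253837 to 45269149, minus strand), the chain that binds the cytokine, stood at 112, 105 and 109 CPM across the ctrl-Treg and at 185, 182 and 190.1 CPM across the Sora-Treg libraries. Its groups were far apart relative to their spread, and its log2 fold change was 0.77 with an SE of 0.03 (by edgeR, adjusted p = 6.80e-15), a 1.71-fold rise that stayed below the 2-fold limit. Il10rb (chromosome 16, 91406164 to 91425834, plus strand), a chain shared with the receptors for IL-22 and the lambda interferons, stood at 70.8, 70.8 and 70.6 CPM across the ctrl-Treg and at 84.7, 79.6 and 85.0 CPM across the Sora-Treg libraries. The controls lay within a fraction of a CPM of each other, and the Sora libraries spread more widely above them. Its log2 fold change was 0.23 with an SE of 0.04 (by edgeR, adjusted p = 2.75e-05), or 0.12 with library size alone (edgeR adjusted p = 0.0143). Il10rb shares most of its span with the annotated gene Gm21970 on the same strand, which was not analysed here.

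Within a library the ratio of the receptor chains does not depend on scaling. In FPKM, Il10ra over Il10rb was 1.07, 1.01 and 1.04 in ctrl-Treg cells and 1.48, 1.55 and 1.51 in Sora-Treg cells. Every Sora library had a higher ratio than every control, and the exact two-sided permutation p was 0.1, the smallest that 3 against 3 libraries can give. The level of the ratio depends on the lengths used for each gene, and its change between groups does not.

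All 4 factors known to promote Il10 rose, and the repressor Bhlhe40 rose as well. Maf (chromosome 8, 115682942 to 115707794, minus strand), the gene of c-MAF, stood at 18.1, 19.2 and 18.5 CPM across the ctrl-Treg and at 64.4, 75.2 and 64.8 CPM across the Sora-Treg libraries. The controls were tight, and Sora replicate 2 was the highest library. Its log2 fold change of 1.87 with an SE of 0.06 (by edgeR, adjusted p = 2.21e-17) was the largest among the 5 factors and corresponded to 3.66-fold. Nfil3 (chromosome 13, 52967209 to 52981073, minus strand), the gene of a basic leucine zipper factor also known as E4BP4, stood at 57.4, 60.1 and 58.3 CPM across the ctrl-Treg and at 202, 189 and 198 CPM across the Sora-Treg libraries. No library lay between these groups, and the log2 fold change was 1.74 with an SE of 0.04 (by edgeR, adjusted p = 1.03e-20). Prdm1 (chromosome 10, 44437177 to 44528501, minus strand), which encodes the zinc finger repressor BLIMP-1 of terminally differentiated lymphocytes, was the least abundant factor. It stood at 6.32, 6.81 and 5.20 CPM across the ctrl-Treg and at 15.5, 15.7 and 17.0 CPM across the Sora-Treg libraries. The groups were separated by more than the range of either, and the log2 fold change was 1.39 with an SE of 0.10 (by edgeR, adjusted p = 5.95e-11). On log2(FPKM + 1), where the added 1 exceeds each of its control values, the value was 0.65, still past the p threshold and below 2-fold.

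Ahr (chromosome 12, 35497974 to 35535038, minus strand), the gene of the aryl hydrocarbon receptor, changed less. It stood at 26.6, 28.2 and 28.3 CPM across the ctrl-Treg and at 35.8, 38.0 and 33.6 CPM across the Sora-Treg libraries. All Sora libraries were higher, and the log2 fold change was 0.37 with an SE of 0.06 (by edgeR, adjusted p = 1.27e-05), or 0.22 on log2(FPKM + 1). Bhlhe40 (chromosome 6, 108660629 to 108666925, plus strand), a basic helix-loop-helix factor, was the most abundant of the 10 genes and exceeded 98.7% of tested genes in mean level. It stood at 661, 647 and 671 CPM across the ctrl-Treg and at 774, 768 and 777 CPM across the Sora-Treg libraries, with the Sora libraries close together. The log2 fold change was 0.23 with an SE of 0.02 (by edgeR, adjusted p = 3.18e-08), and 0.11 with library size alone (edgeR adjusted p = 3.89e-04). The antisense gene 0610040F04Rik overlaps its first bases and had 20 to 52 counts per library, against at least 21452 for Bhlhe40.

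**Figure D2:**
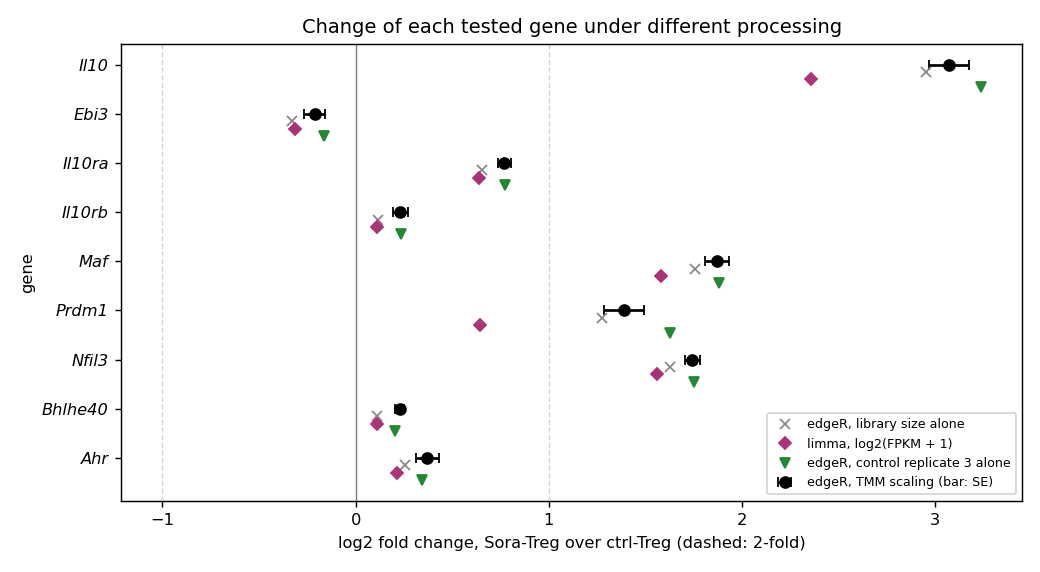
Log2 fold change of Sora-Treg over ctrl-Treg cells for the 9 tested genes, as a black point with its SE for edgeR with TMM scaling, a cross for scaling by library size alone, a diamond for limma on log2(FPKM + 1) and a triangle for control replicate 3 as the only control. Il10, Maf, Prdm1 and Nfil3 lie beyond the dashed 2-fold line under all 4 settings except Prdm1 on log2(FPKM + 1) at 0.65, and Ebi3 is below 0 throughout.

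The order of the genes by level per length was not the same in both groups. In the deposited FPKM values the order in ctrl-Treg cells was Bhlhe40, Il10ra, Ebi3, Il10rb, Nfil3, Maf, Ahr, Il10, Prdm1 and Il12a. Bhlhe40 was at 221 ± 4.41 FPKM and Il10 at 1.55 ± 0.173 FPKM (SD, n = 3). Il10ra and Ebi3 at 32.4 FPKM each overlapped, as did Maf and Ahr at 5.32 and 5.25 FPKM, and the other neighbours did not. In Sora-Treg cells Nfil3 at 42.3 ± 1.46 FPKM lay above Il10rb and Ebi3, and Il10 at 12.1 ± 1.06 FPKM lay above Ahr at 6.26 ± 0.376 FPKM (SD, n = 3), with no overlap between any neighbours. With these lengths Maf and Ahr were at a ratio of 1.01 ± 0.0218 in ctrl-Treg cells, and Maf was 2.87 ± 0.141 times as high per length in Sora-Treg cells (SD, n = 3).

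This order depends on the lengths behind the FPKM values. The deposited values imply a length of 2095 bases for Il10, 4463 for Nfil3, 9742 for Prdm1 and 3642 for Maf, against 1310, 2026, 5579 and 8241 bases covered by GENCODE M21 exons. With the GENCODE lengths Nfil3 stood at 93.1 ± 3.22 FPKM in Sora-Treg cells, above Il10ra, and Il10 at 19.3 ± 1.69 FPKM, above Maf at 7.94 ± 0.702 FPKM (SD, n = 3). Bhlhe40 was first, and Prdm1 and Il12a last, with both sets of lengths and in both groups. Maf was below Ahr in ctrl-Treg cells with the GENCODE lengths, at 2.35 against 4.68 FPKM, and above it in Sora-Treg cells, at 7.94 against 5.58 FPKM. Il10 was below Ahr in ctrl-Treg cells and above it in Sora-Treg cells with both sets, although with the GENCODE lengths its control level overlapped that of Maf.

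**Figure D3:**
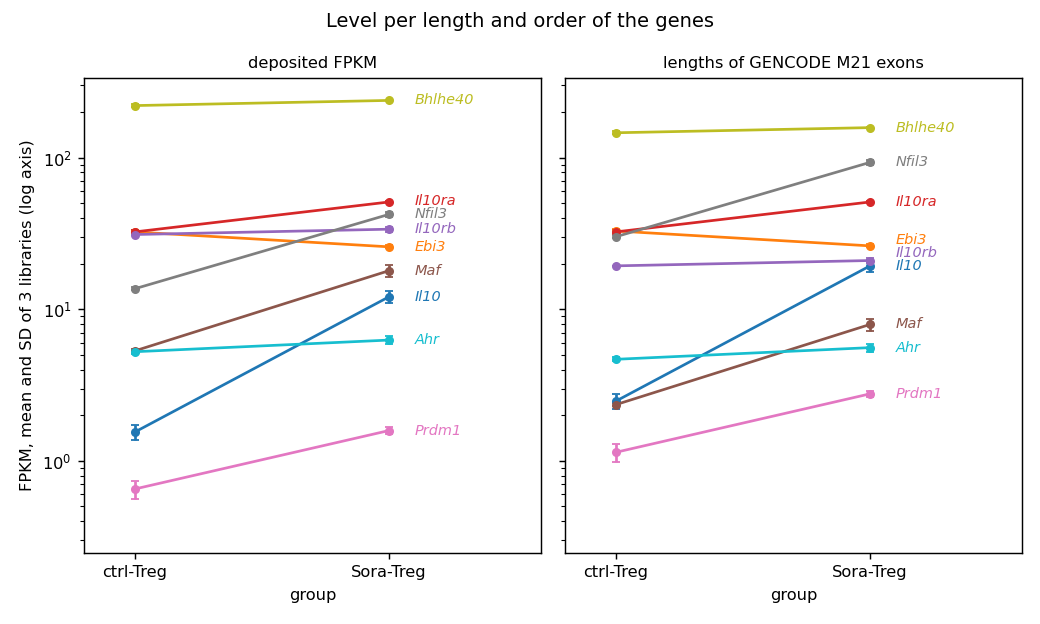
Mean FPKM with SD over 3 libraries on a log axis in ctrl-Treg and Sora-Treg cells, for 9 genes (Il12a, near 0, is left out), with the deposited FPKM on the left and FPKM recomputed with GENCODE M21 exon lengths on the right. Il10 climbs more steeply than the other genes on both sides, whereas the place of Nfil3 and Maf among the others shifts with the lengths.

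RefSeq start-site windows on GRCm38.p6, with 250 bases before and 50 after the annotated start, were matched for 4 of the 10 genes, Ebi3, Il12a, Prdm1 and Nfil3. They are shown because these genes include both interleukin-35 chains, which were lower, and a pair of factors that rose. The window of Prdm1 belongs to a start inside the longer GENCODE gene. Capitals mark exact matches, on either strand, to 6 short motifs. The motifs were GCGTG for AHR, CACGTG for BHLHE40, TTANGTAA for NFIL3, GTGAAAG for BLIMP-1, TGCTGAC for MAF and TTCNNNGAA for STAT factors. The AHR core was the only one of the 6 found.
Prdm1, chr10:44458699-44458998, minus strand: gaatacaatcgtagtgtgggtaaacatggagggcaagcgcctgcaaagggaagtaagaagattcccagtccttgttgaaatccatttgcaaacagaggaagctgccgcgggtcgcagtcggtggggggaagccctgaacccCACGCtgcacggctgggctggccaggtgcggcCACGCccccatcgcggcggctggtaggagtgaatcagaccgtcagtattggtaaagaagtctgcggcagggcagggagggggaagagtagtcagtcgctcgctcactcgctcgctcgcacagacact
Il12a second start, chr3:68691174-68691473, plus strand: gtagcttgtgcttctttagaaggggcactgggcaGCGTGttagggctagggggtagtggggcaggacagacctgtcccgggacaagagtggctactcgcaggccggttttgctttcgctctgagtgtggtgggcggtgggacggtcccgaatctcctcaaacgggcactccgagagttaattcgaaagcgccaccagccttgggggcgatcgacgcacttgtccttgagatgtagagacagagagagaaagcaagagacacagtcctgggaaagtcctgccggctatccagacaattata
Ebi3, chr17:55952373-55952672, plus strand: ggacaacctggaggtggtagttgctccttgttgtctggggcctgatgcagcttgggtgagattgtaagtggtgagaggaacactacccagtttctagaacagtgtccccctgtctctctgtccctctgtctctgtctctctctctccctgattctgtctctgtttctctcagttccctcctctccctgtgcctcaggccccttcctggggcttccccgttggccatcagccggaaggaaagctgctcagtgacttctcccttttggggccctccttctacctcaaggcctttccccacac
Nfil3, chr13:52980990-52981289, minus strand: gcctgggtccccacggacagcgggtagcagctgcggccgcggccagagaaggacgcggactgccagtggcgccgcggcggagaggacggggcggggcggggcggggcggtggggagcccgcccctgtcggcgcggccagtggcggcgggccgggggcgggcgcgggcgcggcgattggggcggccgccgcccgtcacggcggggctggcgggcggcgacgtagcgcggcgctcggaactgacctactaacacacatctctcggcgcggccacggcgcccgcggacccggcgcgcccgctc
Prdm1 held the AHR core on the opposite strand at 109 and 77 bases before its start, and the second start of Il12a held it once, at 216 bases before. In all, 32.4% of 32851 windows of this length held this short core, so its presence is common. The windows of Ebi3, Nfil3 and the first start of Il12a held none of the 6 motifs, which were found in 7.15% (BHLHE40), 2.32% (NFIL3), 4.24% (BLIMP-1), 4.67% (MAF) and 8.30% (STAT) of windows. Nfil3 stood out in base composition, with 81.7% G and C against a median of 52.7% over all windows.

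The wider IL-10 pathway was read from 7 lists of 77 genes, 76 of them in the table, and 64 were tested, of which 30 were higher and 18 lower, where 29.7% and 29.9% of all tested genes were. The lists are small, and their counts are read against these shares and not as results about each list. Their median log2 fold change was 0.09. Among 8 genes of IL-10 receptor signalling all were tested, 6 were higher and 2 lower, and the median was 0.36. Stat3, which carries the signal, rose from 579 ± 9.71 to 994 ± 9.03 CPM (SD, n = 3), which on the log2 scale was 0.78 ± 0.02. Socs3, a feedback inhibitor induced by STAT3, had 0.95 ± 0.03, Zfp36, whose product promotes decay of cytokine mRNAs, 1.17 ± 0.04, and Bcl3 0.44 ± 0.04 (log2 fold change ± SE, edgeR adjusted p at most 1.05e-09). The kinase genes moved little and in opposite directions, Jak1 by 0.09 (-0.02 with library size alone) and Tyk2 by -0.18 on the log2 scale, and the call for Jak1 was lost under several alternatives.

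Il24 and Il22, cytokines of the IL-10 family, had higher fold changes than Il10 itself, a difference that was not tested. Of 11 genes of this family and its receptors 4 passed the filter and were higher. Il22 passed only through the Sora-Treg libraries, where it is high, so its direction was fixed by the filter. Il24 rose from 8.30 ± 0.531 to 163 ± 2.64 CPM (SD, n = 3), which on the log2 scale was 4.30 with an SE of 0.05 (by edgeR, adjusted p = 1.41e-25). Il22 collected 4, 4 and 0 counts across the ctrl-Treg and 71, 68 and 71 across the Sora-Treg libraries, a ratio of 28.9 with an exact 95% interval from 14.4 to 67.8 that covers counting error only. The receptor genes Ifnlr1 and Il20rb had log2 fold changes of 1.31 and 1.54 with SEs of 0.26 and 0.38 (by edgeR, adjusted p = 1.42e-04 and 0.00133), and the call for Il20rb was lost with control replicate 3 as the only control (1.37, edgeR adjusted p = 0.0612). The other 7 were below the filter.

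Genes for other IL-12 family chains and for receptors of this family went both ways. Of 5 tested genes 3 were higher and 2 lower, where 59.6% of all tested genes were called. Il12b and Il27, the other partner genes of Il12a and Ebi3, had at most 2 counts and 1 count in any library and were not tested. Il23a, the alpha chain of IL-23, fell from 15.0 ± 1.34 to 1.97 ± 0.499 CPM (SD, n = 3), which on the log2 scale was -2.94 with an SE of 0.14 (by edgeR, adjusted p = 3.48e-14). Il12rb2, a chain of the IL-12 receptor that also serves interleukin-35, rose from 22.5 ± 0.340 to 106 ± 4.37 CPM (SD, n = 3), which on the log2 scale was 2.24 with an SE of 0.05 (by edgeR, adjusted p = 6.28e-21). Il12rb1 rose by 0.78 ± 0.03, Il27ra rose by 0.24 ± 0.04 and Il6st, the gene of the shared chain gp130, had -0.29 ± 0.04 (each a log2 fold change ± SE, adjusted p at most 9.09e-06 by edgeR).

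Of 21 other factors linked to Il10, Stat3 again among them, 9 were higher, 8 lower and 4 did not pass, with a median of -0.04, where the calls over all tested genes (59.6%) were also about evenly split. Crem, a cyclic AMP responsive factor, rose by 1.59 ± 0.05, Ets1 by 0.81 ± 0.02 and Irf4 by 0.57 ± 0.02, whereas Egr3, induced by T-cell receptor signals, changed by -1.87 ± 0.05 and Batf by -0.37 ± 0.05 (log2 fold change ± SE, edgeR adjusted p at most 7.19e-07). Around AHR, 9 of 12 listed genes were tested, 3 were higher, 2 lower and 4 did not pass. Tiparp, a target gene of AHR, rose from 22.8 ± 1.64 to 73.0 ± 4.51 CPM (SD, n = 3), which on the log2 scale was 1.68 with an SE of 0.06 (by edgeR, adjusted p = 5.48e-17). Ahrr, the repressor that AHR induces, collected 5, 6 and 0 counts across the ctrl-Treg and 47, 32 and 55 across the Sora-Treg libraries, a ratio of 13.4 with an exact 95% interval from 7.26 to 27.5 that covers counting error only. It passed the filter only through the Sora-Treg libraries, so its place among the 3 higher genes was fixed by the filter. Cyp1a1 and Cyp1b1, further AHR targets, were below the filter, with 1 against 18 and 5 against 22 counts summed over the libraries of each group. Nqo1, another listed AHR target, had 5 to 18 counts per library and did not pass, at -0.52 with an SE of 0.55 (by edgeR, adjusted p = 0.430). The chaperone genes Hsp90ab1 and Ptges3, whose products hold AHR in the cytosol, had log2 fold changes of -0.20 and -0.28 with SEs of 0.02 and 0.06 (by edgeR, adjusted p = 1.44e-08 and 1.83e-04), and Arnt, the partner of AHR, had 0.11 ± 0.04 (edgeR adjusted p = 0.0474), a call lost under 11 of 18 alternatives, with -0.01 by library size alone.

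Of 11 relatives and counterparts of the 5 factors, 3 were higher, 3 lower and 5 did not pass. Among the lower genes, Hlf had 19, 15 and 31 counts across the ctrl-Treg and 7 in each Sora-Treg library. It passed the filter only through the ctrl-Treg libraries, so its direction was fixed by the filter. Bach2, a repressor known to oppose Prdm1, rose together with it, by 0.49 with an SE of 0.03 (by edgeR, adjusted p = 4.75e-12), while Bcl6, another opponent of Prdm1, had -0.22 with an SE of 0.11 (by edgeR, adjusted p = 0.0872). Dbp and Tef, whose products bind the same sites as NFIL3, had -0.64 and -0.41 with SEs of 0.06 and 0.04 (by edgeR, adjusted p = 1.10e-08 and 2.07e-08) where Nfil3 rose. Bhlhe41, the close relative of Bhlhe40, had -0.42 with an SE of 0.19 (by edgeR, adjusted p = 0.0643), and Maff, a small MAF protein, 0.31 with an SE of 0.05 (by edgeR, adjusted p = 2.52e-05). Of 7 surface genes linked to Tr1 cells, which are IL-10-producing T cells, 3 were higher, 1 lower and 3 did not pass. Icos, a costimulatory receptor, had a log2 fold change of 1.61 ± 0.03, Lag3 0.75 ± 0.05, Tigit 0.46 ± 0.08 and Pdcd1, the gene of PD-1, -0.75 ± 0.07 (± SE, adjusted p at most 5.66e-05 by edgeR). Itga2, Havcr2 and Cd226 did not pass, at 0.37, 0.08 and -0.15 (by edgeR, adjusted p = 0.282, 0.797 and 0.149), and their groups overlapped. With library size alone Cd226 was called lower, at -0.27.

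**Figure D4:**
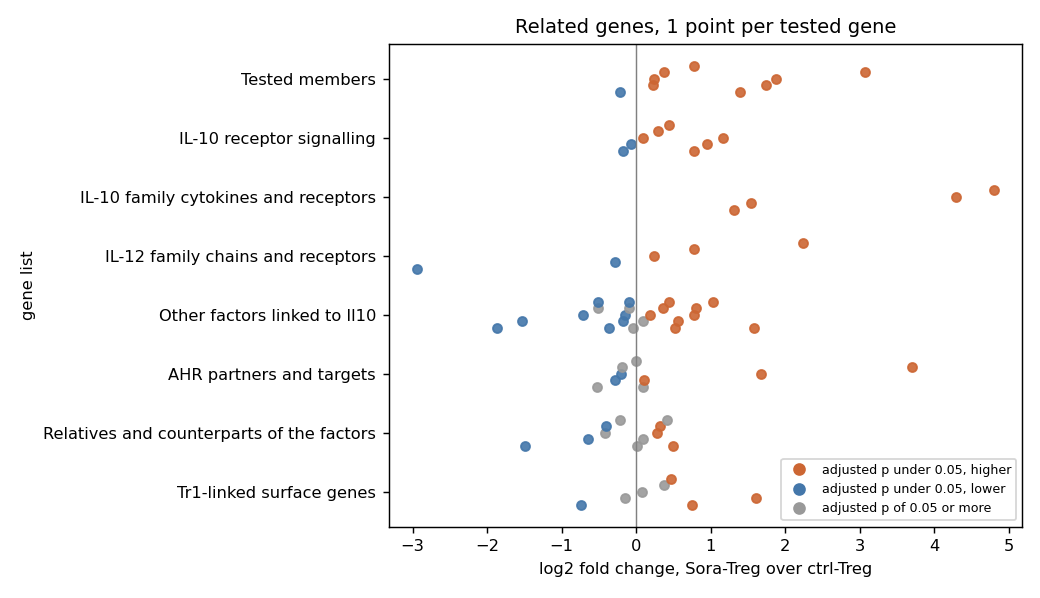
Log2 fold change of Sora-Treg over ctrl-Treg cells for the 9 tested genes of interest and for the tested genes of each of 7 related lists, 1 point per gene, coloured by the call of edgeR. All 4 tested genes of the IL-10 family list lie above 1, while the other lists hold points on both sides of 0.

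The genes whose pattern over the 6 libraries was most like that of Il10 were Gcnt2, Epcam, Ecm1, Fgf11 and Ntrk3. Their root mean square differences from Il10 were 0.0848, 0.104, 0.161, 0.163 and 0.173 in log2 CPM centred on each gene's mean, among 9104 genes compared. The genes most like Ebi3 were Gm867, Srsf3, Txnl4b, Rbm14 and Cyc1, with differences from 0.0147 to 0.0203. This measure describes likeness over 6 libraries of 2 groups, which the difference between the groups dominates, and the libraries share culture and sequencing.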

How the data were processed

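The files deposited by the authors hold unnormalized counts for each gene symbol and FPKM values (fragments per kilobase of gene length and 1000000 counts) for the same genes. FPKM was the count over a fixed gene length and the sum of the library (implied lengths differed by at most 1.64e-06 of their value between libraries), so FPKM served for levels per length and as an alternative. The study's methods name Bowtie2 and GRCm38, whereas the submitters' processing notes list fastp, HISAT2, HTSeq and GRCm39. Strand setting and annotation were not given in the sources used here. Positions are from GENCODE M21 on GRCm38.

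Counts were fitted in R 4.3.3 with edgeR 4.0.16 (quasi-likelihood F-test, TMM scaling, filterByExpr, no covariate), and p-values were adjusted by Benjamini-Hochberg over 13463 genes. A DEG passed an adjusted p of 0.05 and changed by over 2-fold. SEs are those the F statistic implies. Groups and replicate numbers came from the sample titles. Nothing says that replicates came from separate cultures, so p-values measure only the spread between these libraries.

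Alternatives were other scalings and filters, DESeq2 1.42.0, robust fitting, limma 3.58.1 on log2(FPKM + 1) or log2(FPKM + 0.1), a replicate block, each library left out, and control replicate 3 alone. The count and FPKM fits were also run on simulated data, in which far fewer genes changed than were called here. That run therefore does not bear on how scaling affects small changes. The genes, lists and alternatives were chosen with earlier results of these data known. From each list the 4 genes with the smallest adjusted p and further genes chosen for their role are named. Jak1, Tyk2, Nqo1, Hlf, Itga2, Havcr2, Cd226 and the single markers were named after their values were seen.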

Additional observations from a re-analysis of the deposited data

How the results depend on the processing

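Il10, Il10ra, Il10rb, Maf, Prdm1, Nfil3, Bhlhe40 and Ahr were called higher under each of the 18 alternatives, so the count of genes called higher was 8 throughout. Ebi3 kept its direction, with log2 fold changes from -0.33 to -0.16, and lost its call only with control replicate 3 as the sole control (-0.16). That fit assumes that the lone control varies like the Sora libraries, and it was chosen with the myeloid levels known. The count of genes called lower was 0 there. It was 2 when every gene with 1 count was tested, with DESeq2 and with unfiltered limma on log2(FPKM + 1), since Il12a was then tested, and lay between 1 and 2 when single libraries were dropped. Il12a was a DEG under the first of these and with DESeq2, so that 1 lower DEG was counted, and between 0 and 1 when single libraries were dropped. Where it was tested with a library dropped, it passed the filter only through ctrl-Treg libraries, so its direction there was fixed by the filter. The log2 ratio of Il12a counts lay between -5.03 and -3.92 when single libraries were dropped, was -4.07 with control replicate 3 alone and -0.37 in unfiltered limma on log2(FPKM + 1), where the added 1 outweighs its values. The number of DEGs among the genes called higher was 3 on log2(FPKM + 1), where Prdm1 dropped out.

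With the replicate block 8 genes were higher and 1 lower, with Il10 at 3.08 and Ebi3 at -0.21, so the block changed no call among them. Same-numbered libraries did not deviate together (correlations of -0.0438, 0.0591 and 0.0299 over genes), and not every library correlated best with its own number. With 3 libraries per group, correlations this small cannot settle whether same-numbered libraries shared a culture or an animal. Among the related genes the counts ranged from 24 to 33 higher and from 16 to 26 lower, against 30 and 18. Depth limited Il12a, Il12b, Il27, Cyp1a1 and Cyp1b1, where 3 counts correspond to between 0.0795 and 0.0976 per 1000000 total counts, before TMM scaling.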
